A study of Caenorhabditis elegans with 2 samples.

Results

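The genes described here are 30 axon guidance and outgrowth genes of Caenorhabditis elegans, of 19973 protein-coding genes on the nuclear chromosomes. They were chosen by name for their known roles, with earlier results of these data known. Each is described whether or not a region lay near it. By role they are 9 ligands, 6 receptors of netrin, Slit, ephrins or semaphorins, 9 effectors and 6 other cell surface proteins. The effectors act on the cytoskeleton or on transport in the growing axon. By pathway the 30 genes are 3 netrin, 2 slit, 5 ephrin, 5 semaphorin, 9 cytoskeletal and 6 adhesion genes. The cytoskeletal genes are the 9 effectors and the adhesion genes are the 6 other surface proteins. Both labels are broad, and they take in UNC-76, of axonal transport, and CAM-1, a receptor for Wnt ligands. The measurement was chromatin immunoprecipitation followed by sequencing (ChIP-seq), which maps where a protein sits on DNA, for SYD-9, a zinc finger protein known from worm genetics for an effect on synaptic vesicles. Worms of strain OP488 carried the mutation unc-119(tm4063) III and the transgene wgIs488, from which SYD-9 was made with a GFP-FLAG tag at its C-terminal end. Hermaphrodite late embryos were taken 4 h after egg bleaching, their chromatin was sonicated, and DNA was recovered with an antibody against GFP. There were 2 biological replicates of 1 group. Strain, tag and antibody were the same throughout, and no untagged strain or other stage was compared, so all comparisons were made among genes and between the replicates. Whole embryos were used and the lists hold no expression values, so the cells in which a region was bound cannot be told apart.

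Growing axons read cues outside the cell. Secreted netrin and Slit and the ephrins and semaphorins bind receptors on the growth cone, which attract or repel it, and Rac GTPases, their exchange factors and actin regulators turn those signals into turning and growth. Other proteins carry material into the axon, organise its microtubules or hold it to its neighbours and to the matrix. In the worm, many of these genes were found as mutants with uncoordinated movement, and several of them also act in epidermal morphogenesis in the embryo.

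The authors deposited 4 lists of regions on the ce11 build (WBcel235) of the genome. One list came from each replicate, with 10468 regions in replicate 1 and 20425 in replicate 2, one came from the pooled data, with 13472 regions, and one was a smaller set that passed a threshold on the irreproducible discovery rate (IDR), which selects regions that rank alike in the replicates. The regions of this IDR set, 923 of them on nuclear chromosomes, all lie at the top of the pooled list by score. Each region has a summit, its strongest point, and a score given by the authors' peak caller, on a scale that the sources used here do not give. The score had a median of 131 and a range of 95.2 to 932.3 in the IDR set, a median of 44.8 in the pooled list, 25.1 in replicate 1 and 22.9 in replicate 2. Scores from different lists need not share a scale. The pooled and replicate lists reach into background regions. The lists hold no read counts, so depth is unknown and no interval for a count could be given.

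At 6 of the 30 genes, SYD-9-GFP marked an IDR region whose summit lay at most 1000 bp from an annotated 5' end of the gene or in one of its introns. These genes were mab-20, a secreted semaphorin, sax-7 and cam-1, which encode cell surface proteins, and unc-33, unc-73 and unc-76, which encode effectors. None of the netrin, slit or ephrin genes had one. The 6 genes held 9 IDR regions in all, of which 4 lay near a 5' end and 6 in an intron, with 1 region of sax-7 counted as both. Over all protein-coding genes, 4.01% had an IDR summit in either place.

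The sequences below show the DNA under the summits of 6 of these 9 regions. They are from the RefSeq genome of build WBcel235, are written 5' to 3' on the + strand, and cover 75 bp on either side of the summit, except that the first was extended to the end of the tRNA gene beside its summit. In order, they lie at chrIV:3524720-3524891 and chrIV:3521108-3521258 for unc-33, chrV:15071494-15071644 for unc-76, chrIV:8066662-8066812 for sax-7, and chrII:9308763-9308913 and chrII:9307065-9307215 for cam-1. In the first sequence the capitals mark the gene of a tRNA-Arg, M57.t1, and in the others they mark the letters CTGCGTCTC or their reverse complement GAGACGCAG. The unc-33, unc-76 and higher-scoring cam-1 sequences are shown for the shared word or the tRNA gene, and the sax-7 and lower-scoring cam-1 sequences for comparison, since they hold neither.
unc-33, intron region at the tRNA gene: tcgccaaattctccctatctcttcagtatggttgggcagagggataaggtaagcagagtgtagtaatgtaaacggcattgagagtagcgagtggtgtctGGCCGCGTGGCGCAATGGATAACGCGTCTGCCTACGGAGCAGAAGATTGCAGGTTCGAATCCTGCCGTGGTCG
unc-33, second intron region: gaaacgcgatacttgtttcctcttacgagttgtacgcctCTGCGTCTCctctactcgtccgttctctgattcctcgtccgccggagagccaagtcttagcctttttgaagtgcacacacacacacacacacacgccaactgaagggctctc
unc-76, upstream region: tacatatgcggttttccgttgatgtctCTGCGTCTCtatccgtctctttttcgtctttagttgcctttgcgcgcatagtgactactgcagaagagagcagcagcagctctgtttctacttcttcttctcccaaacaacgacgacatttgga
sax-7, upstream region: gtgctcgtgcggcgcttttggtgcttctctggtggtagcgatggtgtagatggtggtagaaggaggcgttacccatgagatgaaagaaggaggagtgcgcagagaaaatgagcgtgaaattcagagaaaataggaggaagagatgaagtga
cam-1, higher-scoring intron region: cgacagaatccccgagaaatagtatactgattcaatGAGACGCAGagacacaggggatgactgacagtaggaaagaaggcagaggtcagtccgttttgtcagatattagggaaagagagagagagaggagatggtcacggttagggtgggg
cam-1, lower-scoring intron region: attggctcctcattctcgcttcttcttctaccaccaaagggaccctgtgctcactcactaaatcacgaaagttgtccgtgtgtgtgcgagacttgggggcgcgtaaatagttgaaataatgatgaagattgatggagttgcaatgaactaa

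The word CTGCGTCTC was picked out after these sequences had been seen, so its count is a description and supports nothing. On either strand it was present in 5 of the 9 windows of 151 bp around the member summits. These were the window upstream of mab-20, the one upstream of unc-73, the second intron region of unc-33, the region upstream of unc-76 and the higher-scoring region of cam-1. Its centre lay 55, 15, 32, 44 and 35 bp from the respective summits. The same word was in 82 of all 923 windows around nuclear IDR summits, or 8.88%, and in 12 of 1846 windows placed 2000 bp to either side of those summits, or 0.650%. Of the 696 IDR windows without a small RNA gene, 11.4% held it. The repeats GAGAGA and CACACA were likewise chosen after the sequences had been seen. GAGAGA, or TCTCTC on the other strand, was in 3 of the 9 member windows and in 38.2% of IDR windows, against 8.94% of the windows 2000 bp away. CACACA, or TGTGTG, was in 4 of the 9, in 25.0% of IDR windows and in 6.45% of those farther away. The GC content of the member windows had a median of 49.7% and a range of 45.0% to 56.3%, beside medians of 50.3% for all IDR windows and 35.8% for the windows 2000 bp away. The words differ in length and base composition, and a match says only that the letters were there.

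The highest score at any of the 30 genes was at unc-33, which encodes a homologue of the vertebrate CRMP proteins that organise axonal microtubules. Its score was 202 in the pooled list, where the region ranked 166th. The scores were 78.5 in replicate 1 and 120.0 in replicate 2, so both replicates had it. The region spans chrIV:3524565-3525024, and its summit lies in an intron of unc-33, 5111 bp downstream of the nearest 5' end of the gene. The summit is 24 bp from the tRNA-Arg gene, which runs from 3524819 to 3524891 on the same strand, is 73 bp long, and holds the letters GGTTCGA known from the internal promoter of tRNA genes. GGTTCGA or its complement TCGAACC was in none of the 9 member windows of 151 bp, in 9.64% of all IDR windows and in 1.29% of those without a small RNA gene. The copy in the tRNA gene runs past the end of the 151 bp window at unc-33 and is not counted there. Which of the nested genes the region belongs to was not tested. The second unc-33 region, at chrIV:3520953-3521412, also lies in an intron, 1499 bp downstream of the same 5' end, with scores of 97.8 in the pooled list, 45.9 in replicate 1 and 54.2 in replicate 2. It has no small RNA gene within 200 bp, and without the tRNA region unc-33 still counted as a gene with an IDR summit in an intron. Another pooled summit, with a score of 48.8, lay 1698 bp downstream. No pooled summit lay within 1000 bp of a 5' end of unc-33, and the nearest outside that limit was 1073 bp away, with a score of 81.1.

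**Figure D1:**
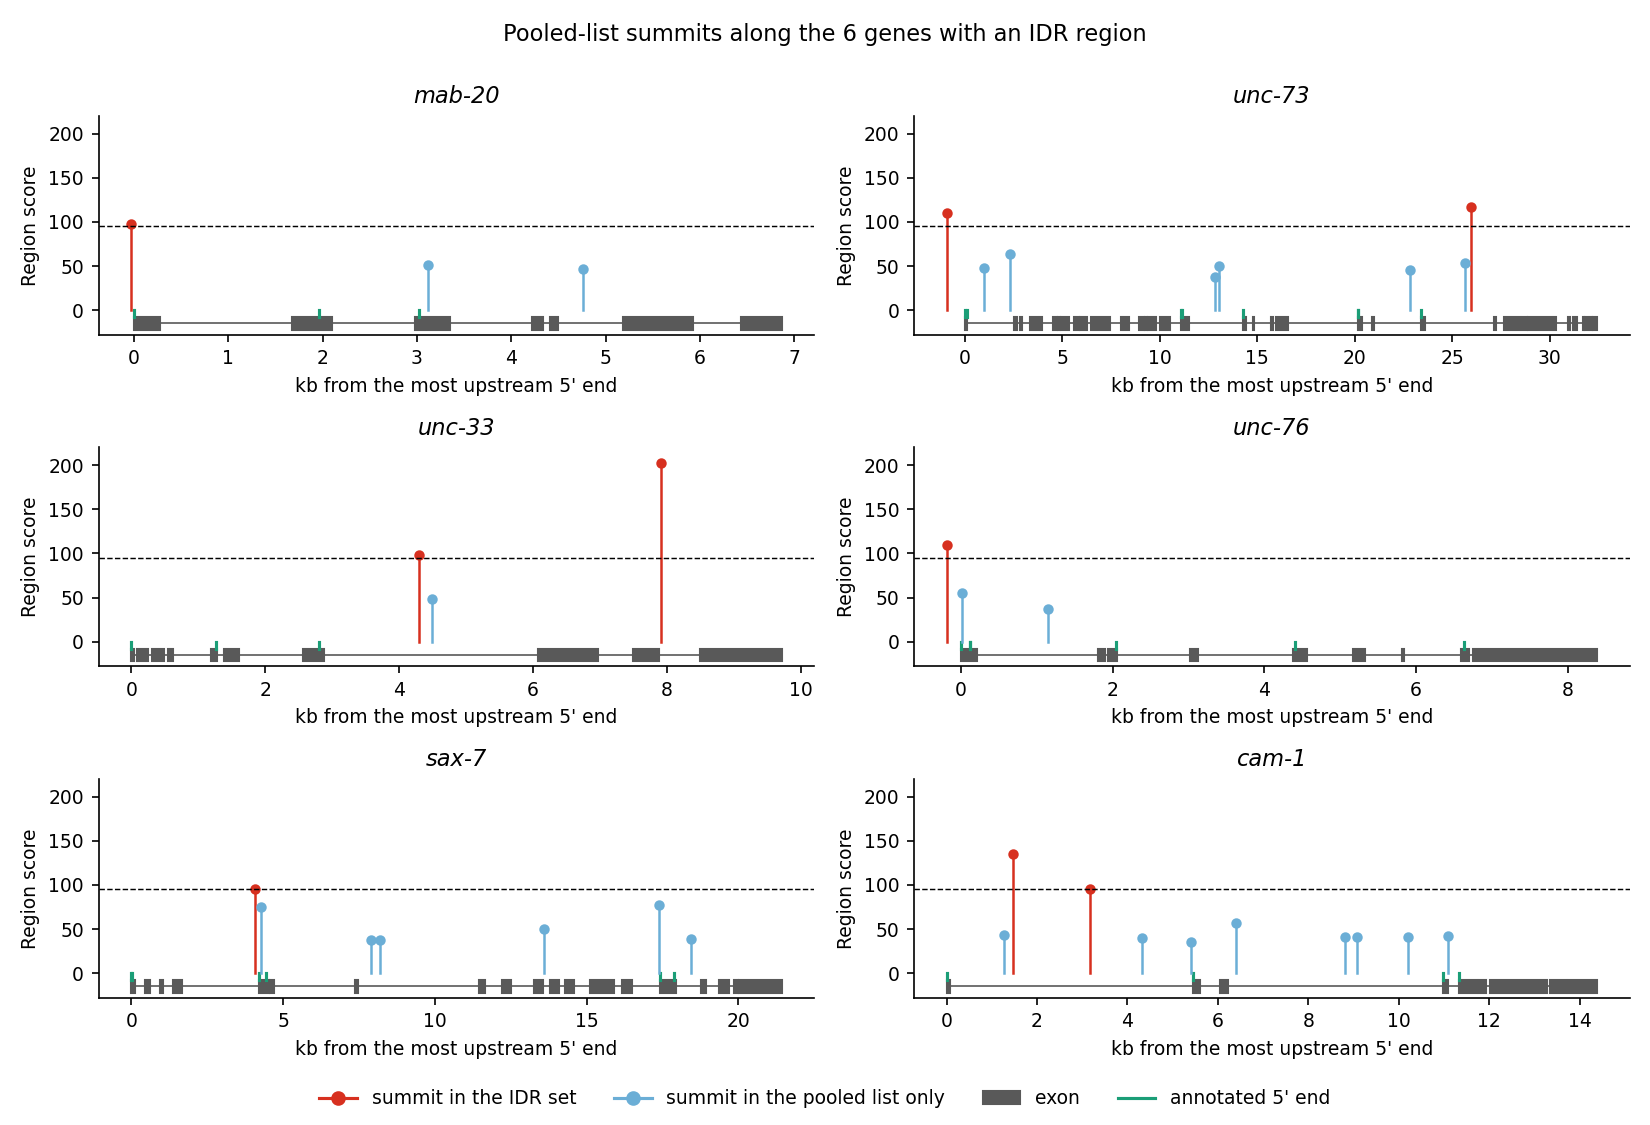
Region score (vertical axis, no unit) of every pooled-list summit near a 5' end or in an intron of the 6 genes with an IDR region, against distance in kb from the most upstream annotated 5' end (horizontal axis, direction of transcription to the right). Red stems are IDR regions and blue stems are summits in the pooled list alone, grey boxes are exons, green ticks are 5' ends, and the dashed line is the lowest IDR score of 95.2. The 2 red stems of unc-33 and of cam-1 stand within introns, while those of mab-20 and unc-76 stand just before the first exon.

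The other cytoskeletal genes with an IDR region were unc-73 and unc-76. UNC-73 is a Trio-like guanine nucleotide exchange factor that activates Rac GTPases. It had an IDR region upstream of the gene, at chrI:4032442-4032901, with its summit 933 bp before the nearest 5' end, close to the limit of 1000 bp. That region had scores of 110 in the pooled list, 49.6 in replicate 1 and 59.8 in replicate 2. A second region, at chrI:4005566-4006025, lay in an intron 2540 bp downstream of a 5' end of a shorter transcript, with scores of 117, 46.9 and 74.6 in the same order. The gene F55C7.2 lies there on the opposite strand and its 5' end is 361 bp from the summit, nearer than any of unc-73, so the region could be assigned to either gene. A further 6 pooled summits of unc-73, all in introns, had scores between 37.1 and 63.3. The summit with a score of 52.9 is also nearer to the 5' end of F55C7.2, at 626 bp, and its region overlaps the second IDR region.

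UNC-76 is the homologue of FEZ proteins, which link cargo to kinesin in axonal transport. Its IDR region at chrV:15071339-15071798 had its summit in intergenic DNA 191 bp upstream of the first 5' end, with no other protein-coding gene's 5' end within 1000 bp. The score was 109 in the pooled list, 58.6 in replicate 1 and 49.3 in replicate 2. Here and at mab-20 replicate 1 had the higher score, while at the other 6 regions found in both replicates replicate 2 did. By rank within its own list, replicate 1 also stood higher at the second unc-33 region, at rank 837 against 965. The same held upstream of unc-73, at rank 693 against 764, and replicate 2 ranked higher at the rest. Further pooled summits had scores of 54.8, at 10 bp downstream of the same 5' end, and 36.8, in an intron.

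The remaining 6 cytoskeletal genes had no IDR summit near a 5' end or in an intron. The highest pooled score near a 5' end was 59.1 at unc-34, the Enabled homologue that extends actin filaments, 61 bp upstream of a 5' end and with scores of 31.8 and 28.3 in replicates 1 and 2. It was 56.1 at unc-44, an ankyrin of the axonal membrane skeleton, 141 bp upstream, with 30.6 and 22.2 in the replicates. For mig-10, the lamellipodin homologue, it was 42.8, and an intron summit of the same gene reached 72.8, with 23.1 in replicate 1 and 49.9 in replicate 2. For unc-51, a kinase of the ULK family that acts in axon growth, there were 3 pooled summits, all in introns and with a highest score of 45.1, and all were found in replicate 2 and not in replicate 1. In ced-10, a Rac GTPase gene, none of the 4 lists had a summit near a 5' end or in an intron, and mig-2, which encodes a Rac-like GTPase, had 1 in replicate 2 alone, with a score of 17.9.

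Of the adhesion and other surface genes, cam-1 held both the second highest and the lowest of the 9 IDR scores. CAM-1 is a receptor tyrosine kinase of the ROR family that binds Wnt ligands. Its higher IDR region, at chrII:9308608-9309067, lay in an intron 1466 bp downstream of a 5' end, with scores of 134 in the pooled list, 51.5 in replicate 1 and 84.1 in replicate 2. Its lower one, at chrII:9306910-9307369, lay in the same long intron, 2287 bp upstream of the 5' end of a shorter transcript. There the pooled score was 95.2, just above the lowest score of the IDR set, and the replicates differed more, with 27.9 in replicate 1 (rank 3672) and 66.3 in replicate 2 (rank 618). The 8 other pooled summits of cam-1 were intronic, with scores between 35.5 and 56.9.

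SAX-7 is the worm L1CAM, an adhesion protein that keeps neurons and their processes in place and that, with DMA-1, shapes sensory dendrites. Its IDR region, at chrIV:8066507-8066966, had its summit 128 bp upstream of the 5' end of a shorter transcript and in an intron of the longer ones. The pooled score was 95.7 and the replicate 2 score 61.0, and replicate 1 had no summit within 200 bp. Replicate 1 did have a summit beside it, with a score of 45.8, at the neighbouring pooled summit 82 bp downstream of that 5' end, where the pooled score was 74.7 and the replicate 2 score 25.7. These adjacent regions overlap and are not independent. The same holds for some neighbouring summits of unc-33, unc-73, unc-76, cam-1, unc-5, ptp-3, vab-1 and smp-1. Such summits were counted separately in the counts and densities given here. Another sax-7 summit near a 5' end, 57 bp upstream, had scores of 76.8, 40.5 and 38.6 in the pooled list and replicates 1 and 2. The other 4 pooled summits of sax-7 had scores of 37.3 to 49.99.

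Of the surface genes without an IDR region, ptp-3, a receptor tyrosine phosphatase of the LAR family, had the most pooled summits of any of the 30 genes in introns, 12 in 27.9 kb of intron. The highest of these had a score of 78.1, with 32.1 in replicate 1 and 44.1 in replicate 2, and the highest near a 5' end had 70.7, with 34.2 and 31.6. For dma-1, the dendrite receptor, the summit 96 bp upstream of the gene lay in an intron of another protein-coding gene. Its pooled score was 63.7, with 35.9 and 23.1 in replicates 1 and 2. For sdn-1, the syndecan, the summit 97 bp upstream had 47.1, with 23.5 in replicate 2 and none in replicate 1. For lad-2, which encodes an L1CAM-like protein, only intron summits were found in the pooled list, the highest at 40.8.

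Among the semaphorin genes, mab-20 had the IDR region and the others had none. MAB-20 is a secreted semaphorin that also acts in epidermal cell contacts. The summit of its region, at chrI:1651256-1651715, was 29 bp upstream of the first 5' end, the closest of the 9, with scores of 97.6 in the pooled list, 54.2 in replicate 1 and 42.99 in replicate 2. Further pooled summits of mab-20 had scores of 51.1, in a coding exon, and 46.1, in an intron. The transmembrane semaphorin gene smp-1 had the highest score near a 5' end among the genes without an IDR region, 80.8 at 982 bp downstream, with 31.9 in replicate 1 and 45.0 in replicate 2. Its relative smp-2 had no pooled summit, and the replicates each had 1 near a 5' end, at different places, 122 bp downstream with a score of 25.5 in replicate 1 and 373 bp upstream with 19.0 in replicate 2. Of the plexins, the semaphorin receptors, plx-1 had a highest pooled score of 42.5 near a 5' end, at 995 bp, and of 44.7 in an intron. For plx-2 the only summit was in replicate 2, with a score of 18.2.

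The netrin genes had regions at the receptors and none in the pooled list at the ligand. For unc-6, which encodes netrin, the replicates had intron summits at different places, with a score of 21.8 in replicate 1 and of 28.8 and 21.7 in replicate 2. For unc-40, the DCC receptor, the summit 288 bp upstream had a pooled score of 63.0, with 34.9 in replicate 1 and 24.9 in replicate 2, and the 5' end of npp-7 was 473 bp from the summit. For unc-5, the receptor that mediates repulsion, the highest score was in an intron, 1312 bp downstream of a 5' end. That region had a score of 89.9 in the pooled list, the highest of any member summit outside the IDR set, with 49.6 in replicate 1 and 41.4 in replicate 2. Near a 5' end of unc-5 the highest pooled score was 51.2.

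Both slit genes had pooled summits at modest scores. The ligand gene slt-1 had summits at 219 bp upstream, with a pooled score of 43.7, and in an intron, with 46.0, and each was found in replicate 2 and not in replicate 1. The Robo receptor gene sax-3 had a score of 45.1 at 256 bp upstream, with 25.0 in replicate 2 and none within 200 bp in replicate 1, and 7 intron summits, of which the highest had 71.6, with 27.2 in replicate 1 and 45.2 in replicate 2. The 5' end of ZK377.15 was 298 bp from the upstream summit of sax-3.

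The Eph receptor gene vab-1 had the highest score of the ephrin group, 72.8 at 710 bp upstream in intergenic DNA, with 31.6 in replicate 1 and 37.3 in replicate 2. A further 9 pooled summits of vab-1 lay in introns, with scores up to 56.9. Of the ephrins, vab-2 had a summit 895 bp upstream of the 5' end of its shorter transcript with a pooled score of 63.8, and 25.3 and 41.1 in replicates 1 and 2. For efn-4 the highest score was 61.3, in an intron, with 41.3 in replicate 2 and none within 200 bp in replicate 1, and the summit 39 bp upstream of the gene had 36.1, with neither replicate having a summit within 200 bp. For efn-2 the summit 964 bp upstream had 46.9, with 24.3 in replicate 2 and none within 200 bp in replicate 1. For efn-3, as for ced-10, no summit was found in any of the 4 lists.

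**Figure D2:**
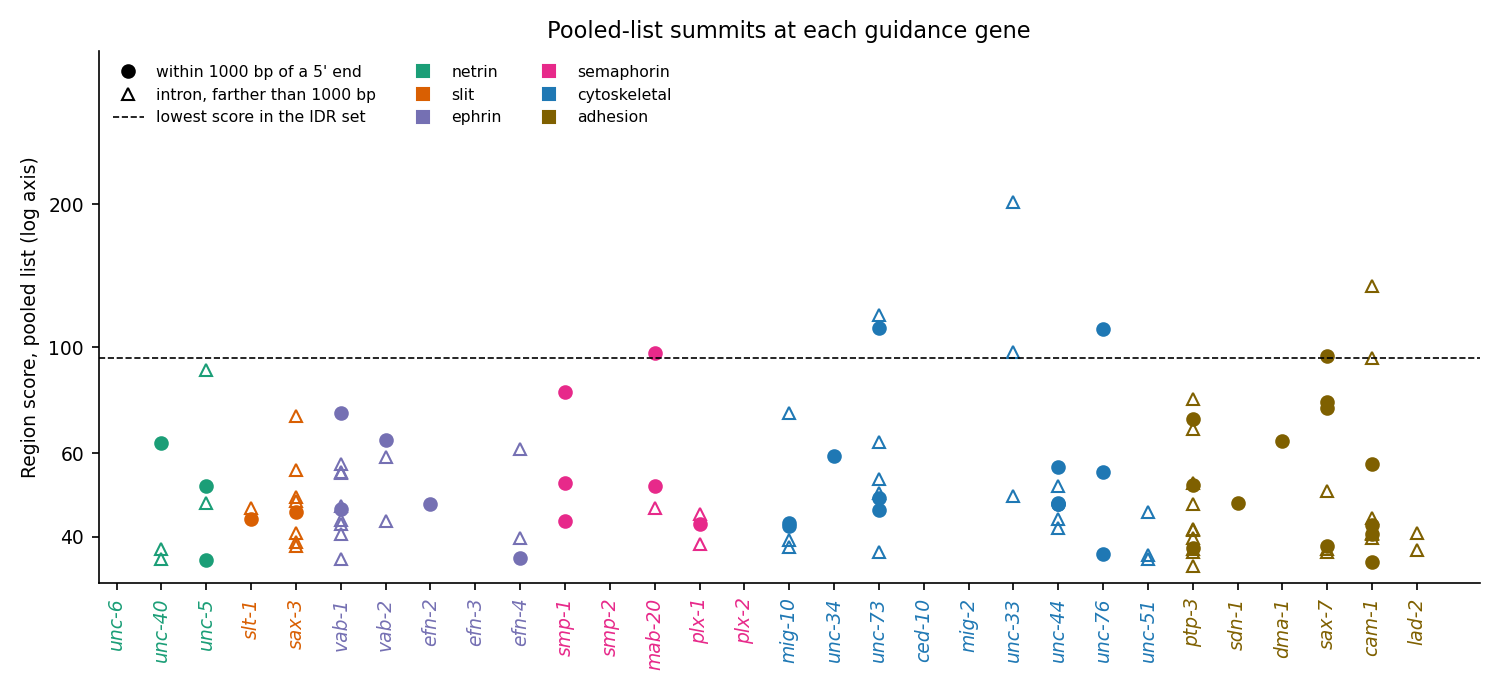
Pooled-list region score (vertical axis, log scale, no unit) of each summit at the 30 genes, which stand along the horizontal axis by pathway. Filled circles are summits within 1000 bp of a 5' end, open triangles are intron summits farther away, colours give the pathway, and the dashed line is the lowest IDR score of 95.2. The points above the line belong to 6 genes, and unc-6, efn-3, smp-2, plx-2, ced-10 and mig-2 have no point.

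Counted over the list, 4 of the 30 genes, or 13.3%, had an IDR summit within 1000 bp of a 5' end, beside 3.41% of all protein-coding genes. The genes were mab-20, sax-7, unc-73 and unc-76. When the IDR set was replaced by the same number of top regions from replicate 2, the count without replicate 1 was 2, sax-7 and unc-73, beside 3.12% of all genes. From replicate 1 in the same way it was the same 4 genes, beside 3.52%. In introns the count of genes was also 4, namely unc-33, unc-73, cam-1 and sax-7, beside 1.12% of the 19285 genes that have an intron. It remained 4 genes without replicate 1, beside 1.15% of the genes that have an intron. Of these, unc-33 counted only by its region at the tRNA gene. Its second region, at rank 965 in replicate 2, fell outside the top regions used. Without replicate 2 the count of genes was also 4, beside 1.16%, with unc-5 in place of sax-7.

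In the longer lists most of the genes had a summit. In the pooled list 21 genes, or 70.0%, had one near a 5' end, against 30.0% of all genes, and 20 genes, or 66.7%, had one in an intron, against 13.2%. In replicate 1 it was 19 genes near a 5' end, with 25.6% of all genes, and 19 in an intron, with 11.8%. In replicate 2 it was 25 genes near a 5' end, with 39.4%, and 23 in an intron, with 19.1%. A summit near a 5' end in both replicates, at the same place or not, was found for 19 of the 30 genes and for 19.1% of all genes. The genes of the list are long. They had a median of 5.94 kb of intron, with a range of 0.421 to 29.5 kb, while the median over all genes was 0.722 kb, and 56.7% of them had several 5' ends, while 26.3% of all genes did.

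**Figure D3:**
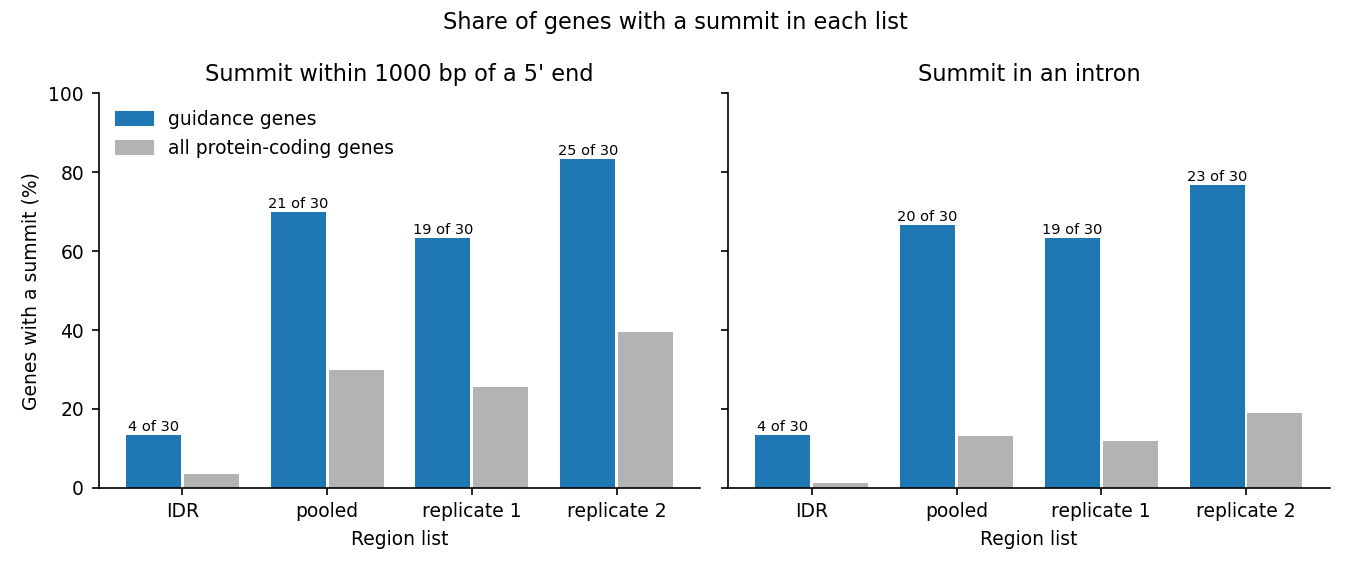
Percentage of genes with a summit (vertical axis) in each region list (horizontal axis), within 1000 bp of a 5' end (left) and in an intron (right), for the 30 guidance genes (blue, with counts) and for all protein-coding genes or all those with an intron (grey). The blue bars stand above the grey ones in all 8 pairs, and the guidance genes also have more intron per gene.

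Because a longer gene offers more room for a summit, the counts were also set against the DNA searched, which was 134.6 kb near 5' ends and 267.5 kb of intron for the 30 genes. Near 5' ends there were 2.97 IDR summits per 100 kb at the members and 1.54 at all protein-coding genes. In introns the values were 2.24 and 0.724. For the pooled list they were 31.2 and 16.3 near 5' ends, and 31.4 and 11.9 in introns. Replicate 1 gave 20.8 and 13.3 near 5' ends and 22.8 and 9.68 in introns, and replicate 2 gave 43.8 and 23.6, and 42.2 and 18.5. In all 8 pairs the members had the higher density, by under 2 times near 5' ends and by more in introns. The IDR densities rest on 4 and 6 summits. The set was not compared with genes of like length or expression, and the 30 genes were chosen with earlier results of these data known, so no test was made of these differences.

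By pathway, IDR summits were found at 0 of 3 netrin, 0 of 2 slit, 0 of 5 ephrin, 1 of 5 semaphorin, 3 of 9 cytoskeletal and 2 of 6 adhesion genes. By role, they were found at 1 of 9 ligands, 0 of 6 receptors, 3 of 9 effectors and 2 of 6 other surface proteins. Over all protein-coding genes the share was 4.01%, so a count of 0 in groups of 2 to 6 genes does not set them apart. The 6 receptors are those of netrin, Slit, ephrins and semaphorins. The other surface proteins include CAM-1, a receptor for Wnt ligands whose gene had IDR regions. The pathway counts are small and turn on single genes. With the top regions of replicate 2 in place of the IDR set, that is without replicate 1, semaphorin genes fell from 1 to 0 and cytoskeletal genes from 3 to 2. Without replicate 2, netrin genes rose from 0 to 1 with unc-5. With the 470 highest-scoring regions of the IDR set, semaphorin genes fell to 0, cytoskeletal genes to 1 and adhesion genes to 1. That cytoskeletal gene was unc-33, by its region at the tRNA gene. In the pooled list, which is longer, 2 netrin, 2 slit, 4 ephrin, 3 semaphorin, 7 cytoskeletal and all 6 adhesion genes had a summit in either place, beside 34.1% of all protein-coding genes. Per 100 kb of intron the pooled list had 57.4 summits at slit genes, 48.5 at ephrin, 44.9 at adhesion, 26.2 at cytoskeletal, 15.4 at semaphorin and 12.1 at netrin genes. The slit value comes from 8 summits in 2 genes, and the order of the pathways is not the same by IDR count and by pooled density. With 2 to 9 genes in a pathway, no test between them was made.

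The 9 IDR regions were then followed into the replicate lists. Replicate 1 had a summit within 200 bp at 8 of them, with scores from 27.9 to 78.5, and replicate 2 at all 9, with scores from 42.99 to 120.0. Over all 107 pooled summits at the members, 62 had a summit of replicate 1 within 200 bp, 87 had one of replicate 2, 46 had both and 4 had neither. Over all 13454 nuclear regions of the pooled list, the share with both was 43.3%. The higher number of replicate 2 summits goes with the greater length of its list.

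**Figure D4:**
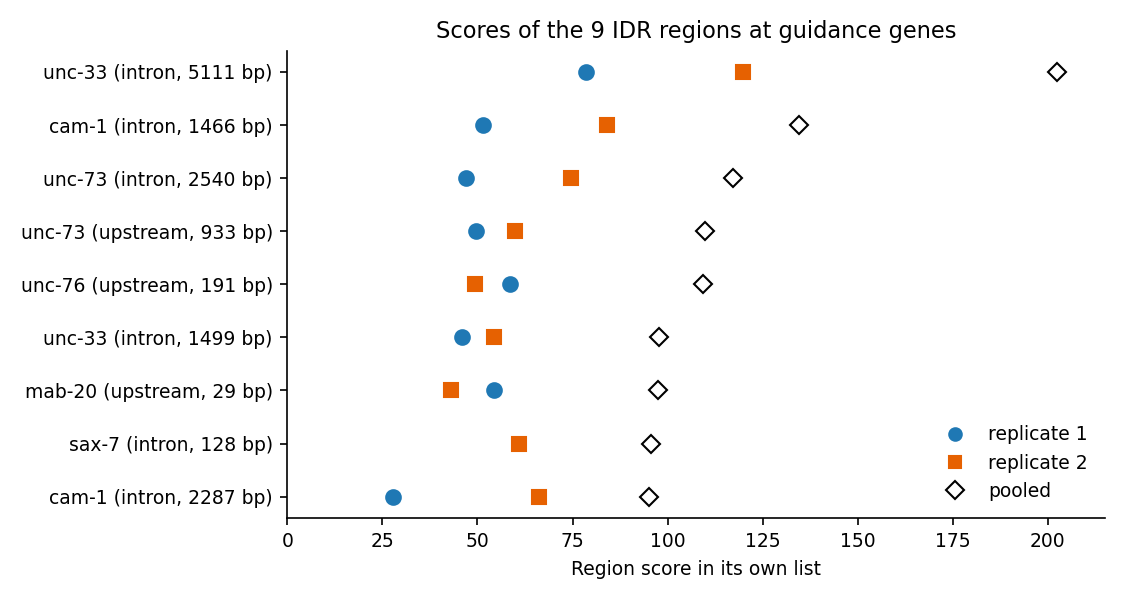
Region score (horizontal axis, no unit) of the 9 IDR regions at guidance genes in the replicate 1 list (blue circles), the replicate 2 list (orange squares) and the pooled list (open diamonds), with the position of the summit and its distance to the nearest 5' end beside each gene name. Replicate 2 is to the right of replicate 1 in 6 of the 8 regions with both, and the sax-7 region has no replicate 1 point.

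All 4 IDR summits near a 5' end lay upstream of it, at a median distance of 159.5 bp, 3 in intergenic DNA and 1, at sax-7, in an intron of longer transcripts. Of the 42 pooled summits near a 5' end, 27 lay upstream and 15 downstream. The median distances were 288 bp for the upstream summits and 556 bp for the downstream ones. By position, 20 were in introns, 12 in intergenic DNA, 7 in coding exons and 3 in UTRs. The intron at the dma-1 summit belongs to another gene. The member was the gene with the nearest 5' end for all 42. Their median score was 47.7, beside 45.8 for the 6413 pooled summits near a 5' end of any protein-coding gene. In C. elegans many messages are trans-spliced, so an annotated 5' end can lie downstream of the place where transcription starts.

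**Figure D5:**
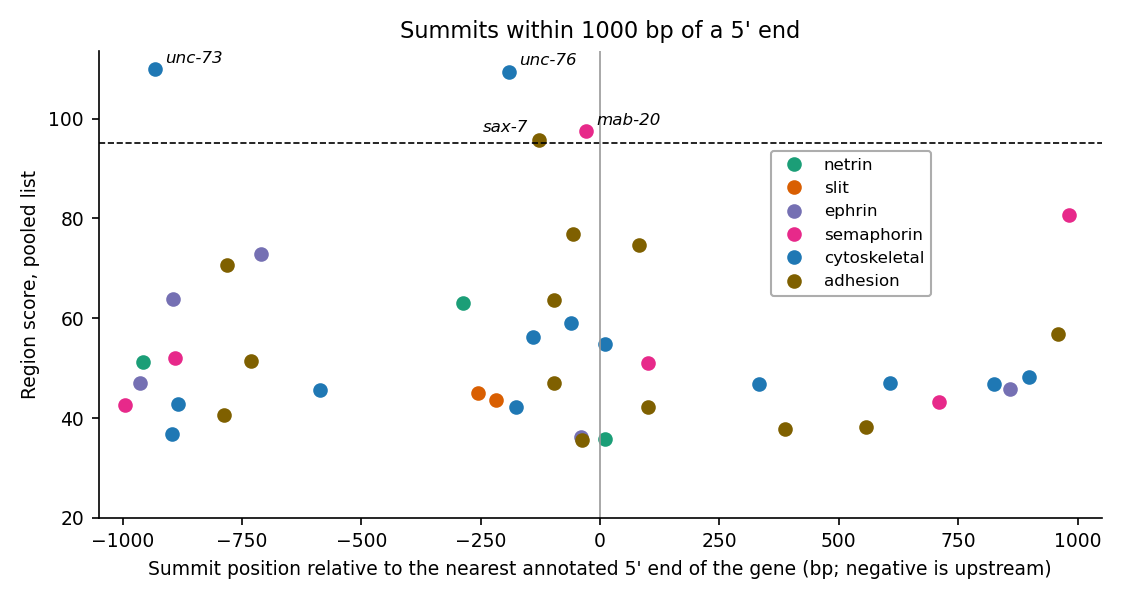
Region score in the pooled list (vertical axis, no unit) of the 42 summits within 1000 bp of a 5' end of a guidance gene, against the position of the summit relative to the nearest 5' end in bp (horizontal axis, upstream negative), coloured by pathway. The dashed line is the lowest IDR score of 95.2, and the 4 named points above it are all upstream.

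The limit of 1000 bp had summits on both sides of it. Just inside were unc-73 at 933 bp, unc-5 at 957 bp, cam-1 at 959 bp, efn-2 at 964 bp, smp-1 at 982 bp and plx-1 at 995 bp. Just outside in the pooled list were unc-44 at 1025 bp with a score of 36.6, mig-10 at 1027 bp with 63.5, unc-44 again at 1066 bp with 41.8 and unc-33 at 1073 bp with 81.1. Between 1000 and 2000 bp there were IDR summits in intergenic DNA upstream of 3 more genes. For unc-44 the summit at 1283 bp had scores of 128 in the pooled list, 65.2 in replicate 1 and 44.3 in replicate 2. For unc-51 the summit at 1465 bp had 99.9, 42.2 and 48.9. For mig-2 the summit at 1796 bp had 98.9, 24.1 and 68.4, and it was nearer to selt-1.1, at 317 bp. With a limit of 2000 bp, 9 of the 30 genes had an IDR summit near a 5' end, beside 5.04% of all protein-coding genes.

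The same count was made for 93 other guidance and outgrowth genes, listed by textbook role, of which 3 had an IDR summit near a 5' end, by the same limit, and 1 had one in an intron. These shares, 3.23% and 1.08%, are near the 3.41% and 1.12% of all protein-coding genes. The first was vang-1, a planar polarity gene in Wnt-dependent guidance, with a score of 149 in the pooled list, 57.5 in replicate 1 and 89.2 in replicate 2, at 311 bp upstream. The non-coding RNA genes F53B3.10 and F53B3.12 overlap that summit. The second was unc-115, an actin-binding protein of the growth cone, with scores of 146, 63.1 and 87.0 at 102 bp upstream. The third was let-2, a type IV collagen of the basement membrane, with 118.8, 62.6 and 54.6 at 43 bp upstream. Of these 3 genes, let-2 was lost when the top regions of replicate 2 took the place of the IDR set. The intron summit was in hmr-1, the cadherin, with 124, 59.0 and 63.4. By list, an IDR summit near a 5' end was found for 1 of 14 Wnt genes, 1 of 13 genes for TGF-beta signals and basement membrane, 0 of 7 for heparan sulfate synthesis, 0 of 12 modifiers of netrin and Slit signals, 1 of 22 actin regulators, 0 of 5 dendrite genes and 0 of 20 other adhesion genes. In the pooled list 58 of the 93, or 62.4%, had a summit near a 5' end, against 30.0% of all genes, and 40, or 43.0%, had one in an intron, against 13.2%. In that list the share was thus above that of all genes for the other guidance genes as well as for the 30 members. Intron length, number of 5' ends and summit density were not computed for the other guidance genes, so their shares make no allowance for gene length.

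The gene of the tagged protein and the marker of the strain were looked up in the same lists. At syd-9 an intron held an IDR region with scores of 141 in the pooled list, 66.5 in replicate 1 and 72.97 in replicate 2, and the highest pooled score near a 5' end was 88.9, at 79 bp upstream. The tagged SYD-9 came from a transgene, so the lists cannot tell regions on the gene's own copy from regions on the transgene. At unc-119 no IDR region was found, and the highest pooled score near a 5' end was 57.6.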

How the data were processed

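ChIP-seq regions of SYD-9-GFP were taken from 2 biological replicates of 1 group. The authors deposited lists of regions per replicate, pooled and after an IDR threshold, per the file names and library descriptions, and the signal value of each region is used as deposited. Peak caller, control scaling and IDR threshold are not given in the sources used here. Lists on build ce10 were not used, and 0 columns of per-sample values were unmapped. Summits were placed against annotated 5' ends and introns of protein-coding transcripts in Ensembl release 115 (WBcel235), and sequence was read from the RefSeq genome of that build. An intron summit lies in no exon of the gene. Summits of different lists within 200 bp were counted as the same place. No test was made, since there is 1 group and regions are not replicates. The genes and lists were chosen with earlier results of these data known. All 30 genes are accounted for. All IDR summits and, for the other genes, the highest pooled summits are named. Other guidance genes are named where they had an IDR summit, hmr-1 after its value was seen. Of 94 such genes listed, 1, enu-3, matched no gene. Alternatives were other distances, 5' ends, list lengths, single replicates and intron rules. Scripts used Python 3.11.15, numpy 2.4.6 and matplotlib 3.10.9 and were checked on simulated summits.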

Additional observations from a re-analysis of the deposited data

How the results depend on the processing

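Of 42 alternative settings of the 7 counts that answer a comparison, 29 stayed within 1.5 times the count and 13 did not. The IDR count near a 5' end of 4 genes became 9 at 2000 bp and 0 with the 470 highest-scoring regions of the IDR list, where 1.75% of all genes had one, and it ranged from 2 to 4 when a replicate was left out. With those 470 regions the intron count of 4 became 2, beside 0.622% of all genes that have an intron. The count in either place, 6, also became 2, cam-1 and unc-33 both times. In both counts unc-33 remained only by its region at the tRNA gene, since its second region ranked 879th. Leaving out a replicate gave 4 genes in introns, beside 1.15% and 1.16% of genes with an intron, and 4 to 7 in either place. The pooled count near a 5' end, 21, became 12 at 250 bp. It ranged from 19 to 25 without a replicate, beside 25.6% and 39.4% of all genes. The pooled intron count, 20, ranged from 19 to 23, beside 11.8% and 19.1% of genes with an intron. The count of genes with a summit near a 5' end in both replicates, 19, became 6 at 250 bp, 10 at 500 bp, 10 with the most upstream 5' end alone and 2 with as many top regions of each list as the IDR set holds. The share of all genes was not counted for these 4 settings. Nor was it counted for the pooled list at 250 bp or for the alternatives of the count in either place. Whether all genes moved alike in these settings is not known. The count of 3 other guidance genes became 5 at 2000 bp, and 5 to 6 without a replicate. Of the 6 without replicate 1, 2 were among the 3, with let-2 lost and cfz-2, lam-2, rig-6 and zig-1 added. The cause of these changes was not tested beyond what fewer bases or regions imply. RefSeq 5' ends and leaving out small RNA genes were added after seeing the data and left 4, 21 and 4 genes. Summits at small RNA genes were left out for the full IDR set only. No paired analysis was possible because there is 1 group. Depth is unknown, so a gene without a summit is not shown to be unbound.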
